A study of Mus musculus with 36 samples.

Results

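A set of 10 genes of heat production and of prostaglandin E signalling were followed across 12 groups of mouse brain arrays. They are Cox7a1, Cidea, Ucp2, Ppara, Ppargc1a and Dio2, which are known from brown fat, and Ptgs2, Ptges, Ptger1 and Ptger3, which make or sense prostaglandin E2. Every probe set annotated to one of these symbols and to no other gene was taken. There were 22 such probe sets among 45101 on the array, and they covered 9 of the 10 genes. Ucp2 has no single-gene probe set in the annotation used and was not analysed here. Ppargc1a had 5 probe sets, Ppara, Dio2 and Ptges had 3 each, Ptgs2, Ptger1 and Ptger3 had 2 each, and Cox7a1 and Cidea had 1 each.

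All mice carried the Camk2a-CreERT2 transgene and 2 floxed Dicer alleles (Cre+;Dicer lox/lox) on a C57BL/6J background. At 8 weeks of age they received tamoxifen (cKO, 10 mg in all over 5 days) or the oil and ethanol vehicle (control), and 4 or 8 weeks later RNA was prepared from the cortex, hypothalamus and hippocampus. Tamoxifen activates the Cre recombinase, which excises an exon of Dicer, the enzyme that cuts miRNA precursors into mature miRNAs. Each of the 12 groups had 3 animals, and by the animal numbers in the labels the 36 arrays came from 12 cKO and 13 control mice. The Camk2a promoter is active in forebrain neurons, so Dicer stays intact in glia, vessels, meninges and other neurons of the same sample. Control mice received no tamoxifen, so the drug and the loss of Dicer cannot be told apart. A lower level in whole tissue can come from fewer cells of a type or from less RNA per cell, which cannot be told apart in these samples.

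Brown fat cells make heat by burning fatty acids in their mitochondria. PPARα (Ppara) is a nuclear receptor that fatty acids activate, and PGC-1α (Ppargc1a) is a coactivator that raises mitochondrial genes when cAMP rises in the cold. Type 2 deiodinase (Dio2) turns thyroxine into the active hormone T3 inside the cell, in brain mainly in astrocytes and tanycytes. Prostaglandin E2 is the mediator of fever in the hypothalamus: cyclooxygenase-2 (Ptgs2) makes its precursor from arachidonic acid, prostaglandin E synthase (Ptges) completes it, and EP1 (Ptger1) and EP3 (Ptger3) are receptors for it. In the cortex, Ptgs2 is also an activity-dependent gene of excitatory neurons.

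Values are log2 intensities from RMA, which the authors ran on the 12 arrays of each tissue apart, so levels were compared only within a tissue and within a probe set. A gene was represented by its most variable probe set and was tested with limma in 1 fit of the 4 groups of a tissue. A difference is cKO minus control on the log2 scale, and it was called at a false discovery rate (FDR) of 15% over all genes tested. In the cortex all 9 genes passed the filter on low values. In the other tissues Ptgs2 and Ptger3 did not, and 7 genes were tested. Ptger1 1445445_s_at and Ptger3 1425251_at failed it in every tissue, with log2 levels between 2.27 and 3.79. A stricter filter, to 10000 genes, left only Ppargc1a and Dio2 of the 9 genes in the cortex, and none of those called below. With 3 animals against 3, no exact permutation p can be lower than 0.1.

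Marker genes of the hippocampus were low or lower on all arrays with that label but 1. Neurod6, a transcription factor of pyramidal neurons, was at 2.68 to 3.31 (log2) on 11 of these arrays and at 9.05 on that of cKO replicate 1 at 8 weeks. Spink8, a marker of CA1 neurons, was at 3.31 to 3.82 on the same 11 and at 8.36 on that one. Slc17a7, the vesicular glutamate transporter of cortex and hippocampus, was at 3.74 to 4.41 against 7.56. Prox1 and C1ql2, genes of the dentate gyrus, were at 4.02 to 4.78 against 6.25 and at 5.89 to 6.71 against 8.34. Zbtb20, which is also expressed in astrocytes, was well measured on the 11 arrays too, at 8.73 to 9.66 against 10.5. These arrays are called labelled hippocampus below, no other tissue name is given to them, and the results that rest on the differing array are given with and without it. Cortex and hypothalamus arrays held their own markers, such as Tbr1 at 6.35 to 8.34 in the cortex and Pmch at 13.3 to 13.6 in the hypothalamus. In the cortex, 3 arrays are said below to stand apart, a choice made after seeing the data (cKO replicate 3 and control replicate 3 at 4 weeks, cKO replicate 2 at 8 weeks). Leaving out each of them raised the calls among all genes at 4 weeks from 769 to 4198, 6819 and 1264, in that order.

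In the cortex 4 weeks after treatment, 4 of the 9 genes differed between cKO and control mice. Cox7a1, Cidea and Ptgs2 rose and Ppara fell, by 1.32-fold to 1.51-fold. The share called among all genes tested was 5.23% (4.25% higher and 0.979% lower). The groups of all 4 genes did not overlap, which held for 19.1% of all genes (16.1% higher and 2.99% lower). Of the 9 genes, 5 had an unadjusted p under 0.05, against 22.6% of all genes. The median difference of the 9 genes was 0.21, beside 0.11 over all genes, 67.3% of which were above 0.

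Cox7a1 encodes a subunit of cytochrome c oxidase, the last complex of the respiratory chain, in the form found in muscle and brown fat. On its probe set 1418709_at the log2 level of the 3 cKO mice was 5.55, 5.51 and 5.46, and that of the 3 controls 5.04, 5.02 and 5.09. The lowest cKO value lay above the highest control value by more than the range of either group. It rose by 0.46 (SE 0.09, adjusted p = 0.0942 from limma), which is 1.38-fold. Cidea, a lipid droplet protein of brown fat, was at 5.79, 6.23 and 6.20 in cKO and at 5.36, 5.44 and 5.65 in control mice on 1417956_at. cKO replicate 1 was the lowest of its group and still above each control. Cidea rose by 0.59 (SE 0.13, adjusted p = 0.0942), which is 1.51-fold. Leaving out 1 of the 12 cortex arrays kept the call of Cox7a1 in 7 cases and that of Cidea in 6. Both calls were lost without cKO replicate 1 or 2 or control replicate 1 or 2 at 4 weeks. They were also lost without control replicate 2 at 8 weeks, and that of Cidea without control replicate 1 at 8 weeks. Leaving out these arrays, in the order given, left 3, 2, 1, 0, 6 and 80 of all genes called, against 769 with all arrays. The calls thus fell over the whole table and not for these genes alone. The differences themselves stayed between 0.44 and 0.48 for Cox7a1 and between 0.51 and 0.73 for Cidea.

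Ppara was lower in cKO mice on its most variable probe set, 1439675_at. The values were 4.24, 4.03 and 4.31 in cKO and 4.60, 4.61 and 4.56 in control mice. All 3 cKO values lay below the controls, which differed among themselves by less than 0.1. The values are low, and 2 of the cKO values lie under 4.30, the lowest level that the filter let pass as the third-highest value of the 12 arrays. Ppara fell by 0.40 (SE 0.11, adjusted p = 0.137 from limma). The call was kept in 4 of the 12 cases of leaving out 1 array, with differences of -0.46 to -0.31 over the 12. It held without cKO or control replicate 3 at 4 weeks, or cKO replicate 1 or 2 at 8 weeks. In that order, 4198, 6819, 399 and 1264 of all genes were called there, against 769 with all arrays. Ppargc1a did not pass the test. On 1460336_at it was at 7.27, 7.56 and 8.82 in cKO and at 8.74, 8.73 and 8.60 in control mice. cKO replicates 1 and 2 were lower than each control and cKO replicate 3 was the highest of the 6, with a difference of -0.81 (SE 0.33, adjusted p = 0.193). Dio2 on 1418938_at was at 5.28, 4.98 and 5.71 in cKO and at 5.58, 5.35 and 6.04 in control mice. The groups overlapped, with a difference of -0.33 (SE 0.21, adjusted p = 0.325).

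The promoters of Ppara, Ppargc1a and Dio2 are shown since these 3 genes were the members that lay lower in cKO mice at 4 weeks and higher at 8 weeks in the cortex, and since cAMP is a known inducer of Ppargc1a and Dio2. The sequences are those of RefSeq on GRCm38.p6, from 250 bases before to 50 bases after the start site, 5′ to 3′ on the strand of the gene, at chr15:85735526-85735825 (plus) for Ppara, chr5:51567676-51567975 (minus) for Ppargc1a and chr12:90738989-90739288 (minus) for Dio2. Capitals mark the core of the cAMP response element, TGACG on either strand.
Ppara: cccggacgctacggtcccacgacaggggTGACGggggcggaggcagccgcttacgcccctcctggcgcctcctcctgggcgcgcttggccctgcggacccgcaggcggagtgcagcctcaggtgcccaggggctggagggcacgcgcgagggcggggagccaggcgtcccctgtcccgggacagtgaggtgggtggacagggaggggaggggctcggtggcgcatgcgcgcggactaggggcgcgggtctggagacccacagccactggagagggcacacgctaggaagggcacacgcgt
Ppargc1a: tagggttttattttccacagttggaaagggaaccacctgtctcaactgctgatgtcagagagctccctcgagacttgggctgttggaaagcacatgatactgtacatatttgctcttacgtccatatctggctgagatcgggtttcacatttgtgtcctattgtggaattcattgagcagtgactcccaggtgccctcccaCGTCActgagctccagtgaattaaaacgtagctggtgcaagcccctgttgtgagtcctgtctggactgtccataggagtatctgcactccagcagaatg
Dio2: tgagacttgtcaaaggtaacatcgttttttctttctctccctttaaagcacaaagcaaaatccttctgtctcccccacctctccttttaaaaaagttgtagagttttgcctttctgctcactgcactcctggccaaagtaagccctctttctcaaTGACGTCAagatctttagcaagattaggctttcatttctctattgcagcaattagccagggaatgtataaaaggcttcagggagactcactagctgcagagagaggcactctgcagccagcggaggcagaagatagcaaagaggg
Counted from the start site, the first base of the core was at -222 in Ppara, at -49 in Ppargc1a and at -95 in Dio2, where it was part of the full element TGACGTCA. This element reads the same on both strands and so holds a second, overlapping match at -92. Ucp2, which was not analysed, was left out of this search. Of the 9 genes analysed, a promoter was matched for 7. The core was found in 4 of them (Ppara, Ppargc1a, Dio2 and Ptgs2) and in 20.8% of all promoters. The full element was found in Dio2 alone among these 7 and in 1.79% of all promoters. A match of letters describes the sequence and is not a measured binding site.

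Of the prostaglandin genes, Ptgs2 alone passed the test. On 1417263_at it was at 5.16, 5.16 and 5.11 in cKO and at 4.63, 4.45 and 4.71 in control mice. The cKO values lay close together and above each control. It rose by 0.54 (SE 0.17, adjusted p = 0.148 from limma), which is 1.46-fold. This adjusted p was close to the threshold, and the call was kept in 3 of 12 cases of leaving out 1 array. They were those without cKO or control replicate 3 at 4 weeks or cKO replicate 2 at 8 weeks. Of all genes, 4198, 6819 and 1264 were called in these cases, more than the 769 with all arrays. In the fit of all probe sets, where 2.88% were called, the adjusted p of this Ptgs2 probe set was 0.156. The EP3 receptor gene Ptger3 was at 5.52, 5.52 and 5.08 in cKO and at 4.65, 5.43 and 4.30 in control mice on 1450344_a_at. Its difference of 0.58 (SE 0.28, adjusted p = 0.237) was as large as those of the called genes, but the controls ranged over more than 1 log2 unit and overlapped with cKO. The EP1 receptor gene Ptger1 was at 5.61, 5.32 and 5.17 in cKO and at 5.08, 5.11 and 5.29 in control mice on 1450491_at, a difference of 0.21 (SE 0.15, adjusted p = 0.375). Its other probe set, 1445445_s_at, which failed the filter, differed by -0.27 (unadjusted p = 0.0388, adjusted p = 0.245 in the fit of all probe sets). The synthase gene Ptges was the least different of the 9 on 1439747_at (0.10, SE 0.17, adjusted p = 0.696).

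**Figure D1:**
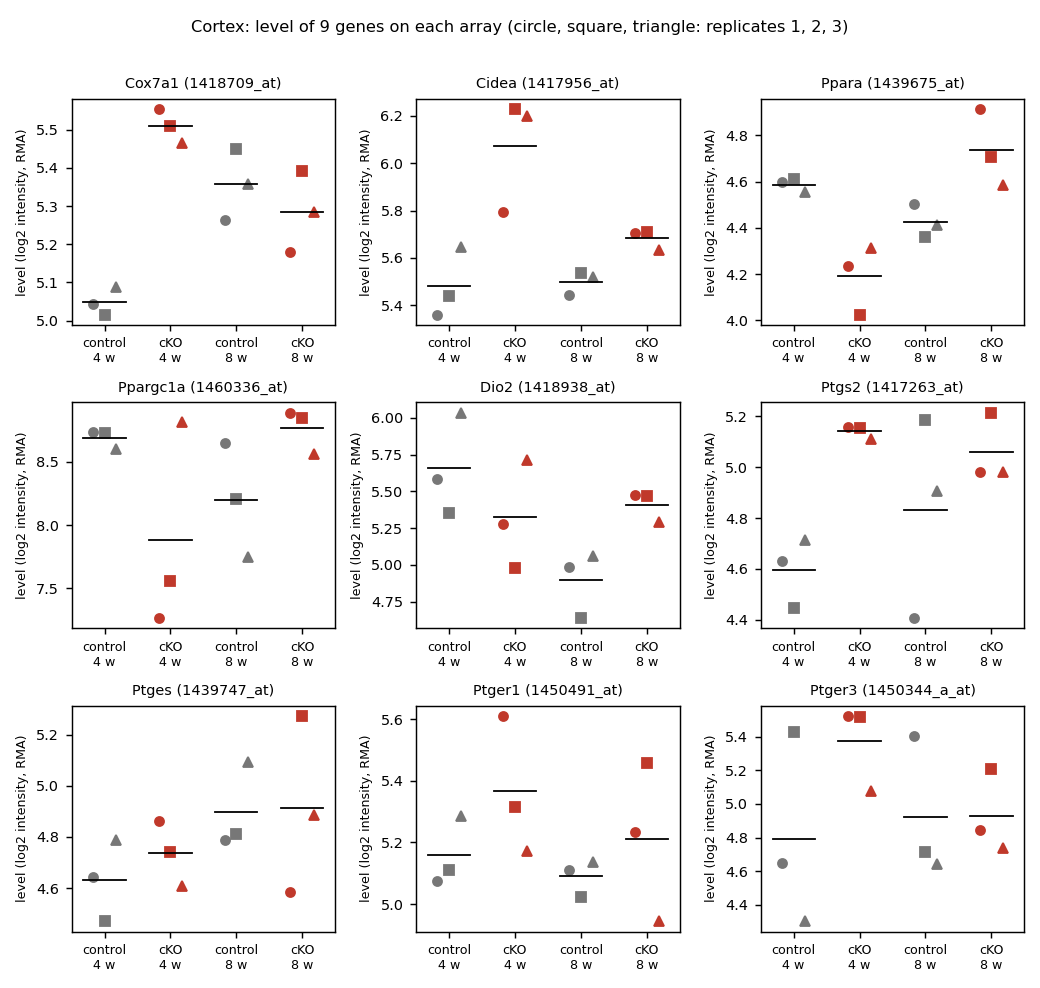
Log2 level (RMA intensity) of the most variable probe set of 9 genes on each of the 12 cortex arrays. Circles, squares and triangles are replicates 1, 2 and 3 of a group, grey is control, red is cKO, and a bar is the mean of 3 arrays. In the 4-week groups the values of Cox7a1, Cidea, Ppara and Ptgs2 do not overlap, whereas 1 of the 3 cKO values of Ppargc1a lies above the controls.

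At 8 weeks no gene was called in the cortex (0% of genes tested by limma, 4.74% at an unadjusted p under 0.05). Among the 9 genes, 2 had an unadjusted p under 0.05, and a plain t-test called none. Ppara and Dio2 now lay higher in cKO mice. Ppara was at 4.91, 4.71 and 4.59 in cKO and at 4.50, 4.36 and 4.41 in control mice (difference 0.31, SE 0.11, unadjusted p = 0.0167, adjusted p = 0.869 from limma). Dio2 was at 5.47, 5.47 and 5.29 in cKO and at 4.99, 4.64 and 5.06 in control mice (0.51, SE 0.21, unadjusted p = 0.0281). In both genes each cKO value exceeded each control value, as it did for Cidea with a difference of 0.18. Groups without overlap were found for 17.5% of all genes at this time. Cox7a1 had a difference of -0.07, with cKO values of 5.18, 5.39 and 5.28 and control values of 5.26, 5.45 and 5.36.

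The change of the difference from 4 to 8 weeks was tested as the interaction of time and treatment. By limma it was called for none of the 9 genes and for 0.0068% of all genes, and 5 of the 9 genes had an unadjusted p under 0.05, against 12.3% of all genes. The difference of Ppara grew by 0.71 (SE 0.16, unadjusted p = 0.000779, adjusted p = 0.350), from -0.40 to 0.31. That of Ppargc1a grew by 1.38 (SE 0.47, unadjusted p = 0.0127) and that of Dio2 by 0.85 (SE 0.29, unadjusted p = 0.0131). The sign turned from lower to higher in these 3 genes, as it did in 15.9% of all genes. The difference of Cox7a1 fell by 0.53 (SE 0.13, unadjusted p = 0.00180) and that of Cidea by 0.41 (SE 0.18, unadjusted p = 0.0410). Without cKO replicate 3 at 4 weeks the interaction was called for 4 members and for 1922 of all genes. Without the 3 arrays that stood apart, a choice made after seeing the data, it was called for 7 members and for 7189 of all genes, so that the count rose over the whole table and not for the members alone.

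Within the cKO mice, Ppara was higher at 8 than at 4 weeks by 0.55 (SE 0.11, unadjusted p = 0.000388, adjusted p = 0.184 from limma), with groups that did not overlap, against 25.4% of all genes. Cidea was lower by 0.39 (SE 0.13, adjusted p = 0.199) and Cox7a1 by 0.22 (SE 0.09, adjusted p = 0.236), also without overlap. By unadjusted p, 4 of the 9 genes were under 0.05 in cKO mice, beside 19.8% of all genes. In the controls, which share no arrays with this comparison, 2 were, beside 7.73% of all genes. Dio2 went from 5.58, 5.35 and 6.04 at 4 weeks to 4.99, 4.64 and 5.06 at 8 weeks in control mice, without overlap, as held for 17.3% of all genes there (-0.76, SE 0.21, unadjusted p = 0.00310, adjusted p = 0.632). In cKO mice its difference between the times was 0.09 (SE 0.21), so that the turn in sign of Dio2 came with the lower level of the 8-week controls. Cox7a1 was higher in the controls at 8 weeks by 0.31 (SE 0.09, unadjusted p = 0.00670) and Ppara lower by 0.16 (SE 0.11). None of the 9 genes was called in either (0% of all genes in cKO and 0.0068% in control mice).

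**Figure D2:**
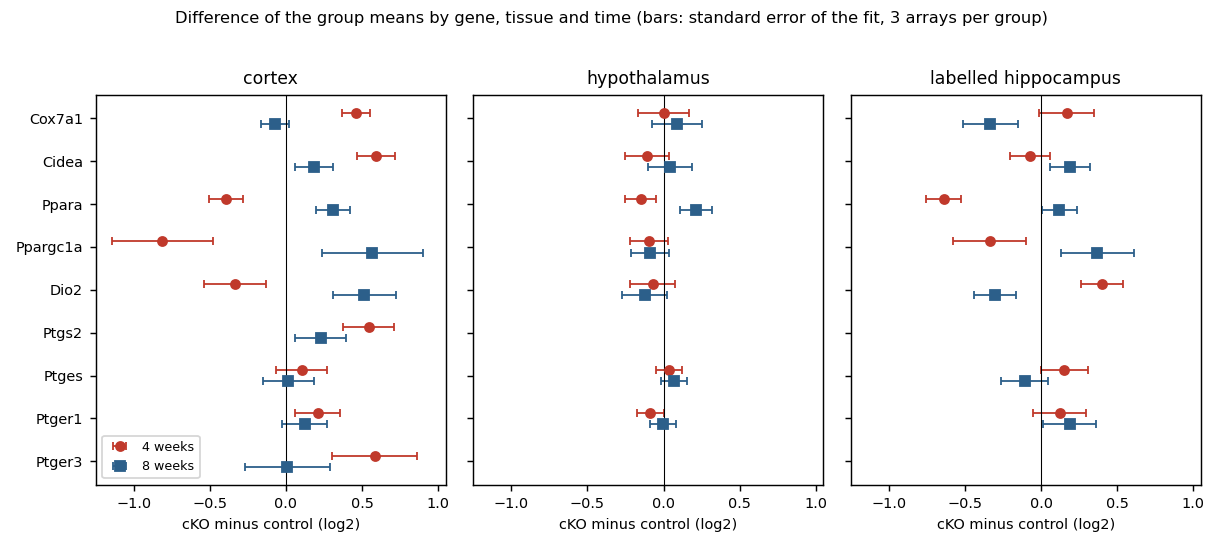
Difference of the group means, cKO minus control (x axis, log2), of each gene at 4 weeks (red circles) and 8 weeks (blue squares) in the 3 tissues, with the standard error of the limma fit as bars and 3 arrays per group. In the cortex Ppara, Ppargc1a and Dio2 lie left of 0 at 4 weeks and right of it at 8 weeks, whereas the hypothalamus values lie between -0.15 and 0.21. Ptgs2 and Ptger3 have no values in the other 2 tissues, where they failed the filter.

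Probe sets of the same gene did not all move alike, and several of the differences above rest on 1 probe set of a gene. Of the 22 probe sets, 12 were above 0 and 10 below 0 in the cortex at 4 weeks, and in the fit of all single-gene probe sets 3 were called (Cox7a1, Cidea and Ppara 1439675_at). The other Ppara probe sets differed by -0.04 (1449051_at) and 0.12 (1457721_at). 1449051_at was at 4.50, 4.60 and 5.15 in cKO and at 4.59, 4.66 and 5.11 in control mice, so both groups covered the same range. For Ptgs2 the second probe set, 1417262_at, differed by -0.08 at 4 weeks. At 8 weeks it was at 6.18, 5.99 and 6.02 in cKO and at 5.64, 5.77 and 5.75 in control mice. That difference of 0.34 (SE 0.10, unadjusted p = 0.00530, adjusted p = 0.919 from limma) was the lowest unadjusted p of the 22 probe sets in the cortex at 8 weeks.

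Dio2 1418937_at differed by -0.13 at 4 weeks and -0.06 at 8 weeks, and 1426081_a_at by 0.39 and 0.19, against -0.33 and 0.51 on the tested probe set. On 1426081_a_at the values at 4 weeks were 6.67, 6.77 and 6.59 in cKO and 6.07, 5.96 and 6.83 in control mice. Control replicate 3, 1 of the 3 arrays that stood apart, was the highest of the 6. Of the 4 other Ppargc1a probe sets, 1434099_at and 1434100_x_at lay lower in cKO mice at both times, by 0.26 and 0.10 at 4 weeks and by 0.36 and 0.37 at 8 weeks, on the log2 scale. Their groups did not overlap at 8 weeks, beside 6.09% of all probe sets lower without overlap. The remaining pair, 1437751_at and 1456395_at, differed by at most 0.10 in either direction. The difference of 0.57 (SE 0.32) that 1460336_at gave at 8 weeks was thus not seen on the other 4 probe sets.

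**Figure D3:**
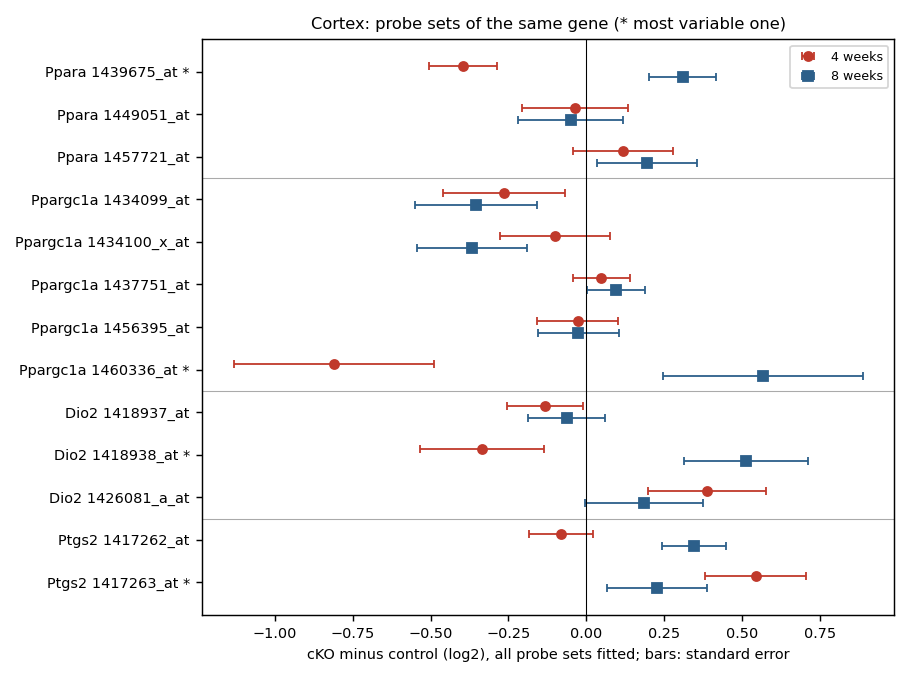
Difference cKO minus control in the cortex (x axis, log2, with standard errors) for each probe set of Ppara, Ppargc1a, Dio2 and Ptgs2 at 4 weeks (red circles) and 8 weeks (blue squares), in the fit of all single-gene probe sets. An asterisk marks the most variable probe set of a gene. Ppara 1439675_at runs from -0.40 to 0.31, while 1449051_at stays at -0.04 and -0.05.

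Genes that mark other cells of the tissue moved with the same groups in the cortex. Of 18 genes of the leptomeninges, the membranes on the brain surface, 14 rose and none fell at 4 weeks, with 18 of 18 differences above 0 and a median of 0.72. The leptomeninges score, the median deviation of these genes from their mean over the 12 arrays, was 0.32 to 0.53 in cKO and -0.50 to 0.02 in control mice at 4 weeks, and -0.12 to 0.21 and -0.28 to -0.05 at 8 weeks. Their summed intensity was 3526 to 3815 in cKO and 1994 to 2711 in control mice at 4 weeks. The 3 arrays with the highest score were also the 3 with the highest Cidea and the 3 with the highest Cox7a1 of the 12. They are the cKO arrays at 4 weeks, so the match restates the difference of that group. Of the 3 arrays with the lowest score, 2 were among the 3 lowest of Cidea, and 2 among those of Cox7a1. The part of these markers in the members' differences was not tested. Of 10 excitatory neuron genes tested 2 fell (Tbr1 and Cux2) and none rose, with a median of -0.45. Their score was -0.51 to 0.0038 in cKO and 0.06 to 0.25 in control mice at 4 weeks, and its part in the values of Cox7a1, Cidea, Ppara and Ppargc1a was not tested. Of 7 fat cell markers (Adipoq, Plin1, Lep, Cfd, Fabp4, Retn and Ucp1) 1 passed the filter on low values in the cortex, and it was not called.

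Ppargc1a on 1460336_at moved with the score of a list of RNAs that are retained in the nucleus, such as Malat1 (correlation 0.93 over the 12 cortex arrays). Not every nuclear RNA did so. Neat1 was the gene most like Cox7a1 (0.93), and Cox7a1 and Ppargc1a correlated at -0.63. The nuclear RNA score of the 3 cKO arrays at 4 weeks was -1.35, -0.39 and 0.77, and that of the controls at 8 weeks ranged from -0.84 to 0.08. The 4 cortex arrays with the lowest score were the 4 arrays with the lowest Ppargc1a on this probe set, 2 of them cKO at 4 weeks and 2 control at 8 weeks. Of the 4 arrays with the highest score, 2 were among the 4 with the highest Ppargc1a. The 1434099_at, 1434100_x_at and 1456395_at probe sets of Ppargc1a moved instead with the actin control probes, whose 3′ minus 5′ signal reports on RNA integrity and labelling. The 5 arrays with the smallest actin difference (1.07 to 1.18, against 1.28 to 1.48 on the others) were the 5 with the lowest values on each of these probe sets. These 5 included all 3 cKO arrays at 4 weeks (1.12, 1.12 and 1.14), whose controls were at 1.30, 1.33 and 1.07, so that the actin difference also moved with the comparison in which Cox7a1, Cidea, Ptgs2 and Ppara were called. The Gapdh control probes did not follow actin. Their 3′ minus 5′ difference at 4 weeks was 0.04, 0.05 and 0.11 in cKO and -0.02, 0.07 and 0.20 in control mice. Control replicate 3 at 4 weeks had the smallest actin difference and the largest Gapdh difference of the cortex arrays. The part of RNA quality in any of these differences was not tested.

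**Figure D4:**
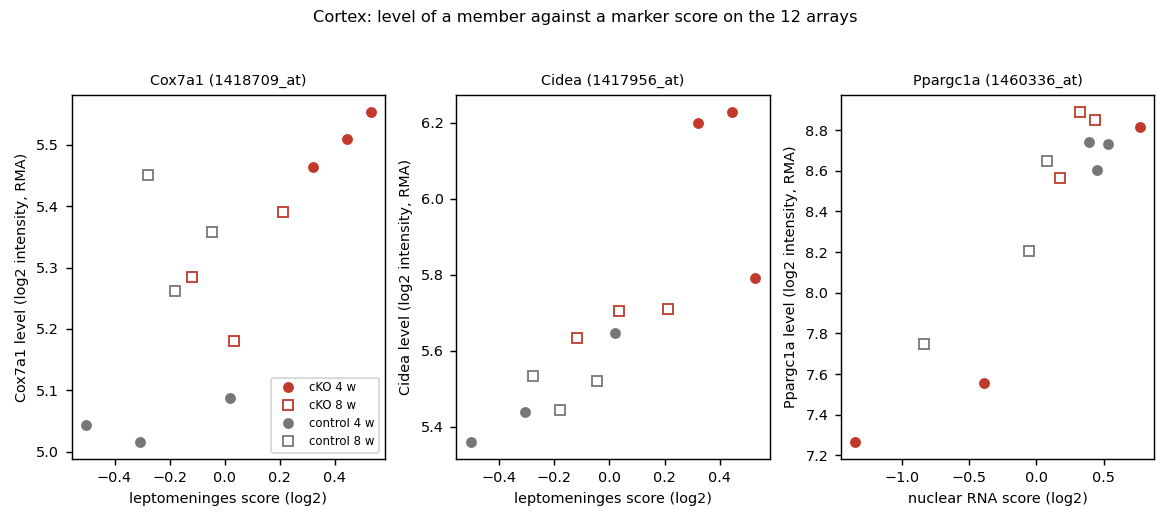
Log2 level of Cox7a1 and Cidea against the leptomeninges score, and of Ppargc1a 1460336_at against the nuclear RNA score (both scores on the log2 scale), on the 12 cortex arrays. Red is cKO and grey is control, filled circles are 4 weeks and open squares are 8 weeks. The 3 red circles lie above and to the right of the other arrays in both leptomeninges plots, and the 4 lowest Ppargc1a values lie at the 4 lowest nuclear scores.

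Other genes of these pathways were counted from lists, to be read beside all genes in the cortex at 4 weeks, of which 4.25% rose and 0.979% fell, with a median of 0.11 and 67.3% above 0. Of 32 further thermogenesis genes tested in the cortex at 4 weeks, 2 rose and none fell, with a median difference of 0.17. They were Tbx1, a transcription factor and marker of beige fat cells (0.51, SE 0.10, adjusted p = 0.0942), and Bmp4, a ligand that drives fat cell commitment (0.88, SE 0.22, adjusted p = 0.113). Of the paralogs of the members, Ucp3 differed by 0.21, Cideb by 0.32 and Cox7a2 by -0.07, with none called. Of 18 further prostanoid genes, 4 rose and none fell, with a median of 0.16. Ptgds, which makes prostaglandin D2 and is abundant in the leptomeninges, rose by 0.55 (SE 0.11, adjusted p = 0.0942). Ptgis, the prostacyclin synthase, rose by 0.61 (SE 0.15, adjusted p = 0.113). Hpgd and Ptgr1, which break prostaglandins down, rose by 0.46 (adjusted p = 0.137) and 0.55 (adjusted p = 0.139). Among other E-type genes, Ptges2, a synthase, and Ptger4, the EP4 receptor, were not called (0.17 and -0.15).

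Targets of PPARα were counted as well, where Ppara itself was called lower on 1439675_at only. Of 19 tested in the cortex at 4 weeks, 2 rose and none fell, with 17 differences above 0 and a median of 0.20. They were Acaa1b, a peroxisomal thiolase (0.46, adjusted p = 0.133), and Cpt2, which takes part in the transport of fatty acids into mitochondria (0.34, adjusted p = 0.146). The 14 other cytochrome c oxidase genes tested had no call, with a median of 0.06 and 8 differences above 0. Of 16 immediate-early genes, which like Ptgs2 respond to neuronal activity, none was called, with a median of 0.15. None of these lists had a call in the cortex at 8 weeks, where limma called no gene.

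In the hypothalamus, the site where prostaglandin E2 sets body temperature, no member was called at either time (0% of genes tested by limma). Of the 7 genes tested, 0 had an unadjusted p under 0.05 at 4 weeks (2.75% of all genes) or at 8 weeks (6.62%), and a plain t-test called none. Cidea was at 7.78, 7.79 and 7.91 in cKO and at 8.09, 7.94 and 7.78 in control mice at 4 weeks, a difference of -0.11 (SE 0.14). Cox7a1 was at 6.49, 6.32 and 6.46 in cKO and at 6.75, 6.12 and 6.39 in control mice, a difference of 0.000723 (SE 0.17). At 8 weeks the groups of 2 genes did not overlap, beside 12.5% of all genes. Ppara, represented here by 1449051_at, was at 5.83, 5.70 and 5.75 in cKO and at 5.66, 5.34 and 5.64 in control mice (0.21, SE 0.10, unadjusted p = 0.0599). No cKO value was as low as the highest control. On the same arrays 14 of 14 microglia genes had differences above 0, with a median of 1.34 and a score of -0.19 to 1.86 in cKO and -0.50 to -0.17 in control mice, and their part in the Ppara values was not tested. Dio2 on 1418937_at was at 7.05, 6.91 and 7.10 in cKO and at 7.13, 7.18 and 7.12 in control mice (-0.12, SE 0.15). The Ppara difference changed by 0.36 from 4 to 8 weeks (SE 0.14, unadjusted p = 0.0282, adjusted p = 0.999 from limma), where 4.46% of all genes had an unadjusted p under 0.05 and 0% were called. At 4 weeks no member's groups stood apart, beside 6.64% of all genes. Both Ptgs2 probe sets failed the filter, and 1417262_at varied from 3.61 to 4.92 without separating the groups. Ptger3 on 1450344_a_at was at 4.70, 4.51 and 5.02 in cKO and at 4.52, 4.35 and 4.53 in control mice at 8 weeks, and its groups overlapped.

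In the labelled hippocampus no member was called either (0% of genes tested by limma at both times). At 4 weeks 2 of the 7 genes had an unadjusted p under 0.05 (6.31% of all genes), at 8 weeks 1 had (5.91%), and a plain t-test called none. Ppara on 1449051_at was at 5.56, 5.71 and 5.26 in cKO and at 6.09, 6.14 and 6.22 in control mice at 4 weeks. Each cKO value lay below each control, which held for 10% of all genes in either direction. The difference was -0.64 (SE 0.12, unadjusted p = 0.000129, adjusted p = 0.625 from limma), and it was -0.52 without cKO replicate 3, the lowest of the 6. Of the other Ppara probe sets, 1439675_at differed by -0.22 (unadjusted p = 0.0677) and 1457721_at by -0.02, both with overlap. At 8 weeks Ppara was at 6.07, 6.04 and 5.90 in cKO and at 6.05, 5.80 and 5.81 in control mice, so that the groups overlapped. The difference grew by 0.76 between the times (SE 0.16, unadjusted p = 0.000564, adjusted p = 0.595) and by 0.73 without cKO replicate 1 at 8 weeks. For this change between the times, 8.01% of all genes had an unadjusted p under 0.05.

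For Dio2 the tested probe set, 1418937_at, lay higher in cKO mice at 4 weeks and lower at 8 weeks in the labelled hippocampus. It was at 8.55, 8.53 and 8.45 in cKO and at 8.16, 8.31 and 7.86 in control mice at 4 weeks (0.40, SE 0.14, unadjusted p = 0.0130, adjusted p = 0.773 from limma). At 8 weeks it was at 8.41, 8.36 and 7.96 in cKO and at 8.63, 8.39 and 8.62 in control mice (-0.30, SE 0.14, unadjusted p = 0.0477). Without cKO replicate 1 the 8-week difference was -0.39 (SE 0.15, unadjusted p = 0.0237, adjusted p = 0.871). The groups stood apart at 4 weeks and overlapped at 8 weeks, where cKO replicate 3 was the lowest. The difference fell by 0.70 between the times (SE 0.19, unadjusted p = 0.00353, adjusted p = 0.595), and by 0.79 without cKO replicate 1 at 8 weeks. The other Dio2 probe sets differed by less, 1418938_at by 0.07 at 4 and -0.09 at 8 weeks and 1426081_a_at by -0.12 and 0.04, none with an unadjusted p under 0.05. In this tissue the leptomeninges genes were lower in cKO mice at 4 weeks, with 0 of 18 differences above 0 and a median of -0.59. The leptomeninges score was -0.70 to 0.27 in cKO and 0.0034 to 0.64 in control mice, and its part in the values of Ppara and Dio2 was not tested.

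Ptgs2 depended on the differing array of the labelled hippocampus. On 1417262_at the cKO values at 8 weeks were 5.35, 3.60 and 3.44, and the controls were at 3.50, 3.30 and 3.22. The high value is that of replicate 1, the array with the hippocampal marker genes, and 1417263_at gave 4.09, 3.20 and 3.14 in the same 3 mice. With it the difference on 1417262_at was 0.79 (SE 0.36, unadjusted p = 0.0496, adjusted p = 0.816 from limma), and without it 0.18 (SE 0.11, unadjusted p = 0.138, adjusted p = 0.892). For Cox7a1 the 8-week values were 5.81, 5.60 and 5.74 in cKO and 6.04, 5.91 and 6.19 in control mice. Replicate 1 was there the highest of its group, and each cKO value lay below each control, beside 14.5% of all genes (-0.33, SE 0.18, adjusted p = 0.767). Without it the difference was -0.38 (SE 0.21, adjusted p = 0.871).

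**Figure D5:**
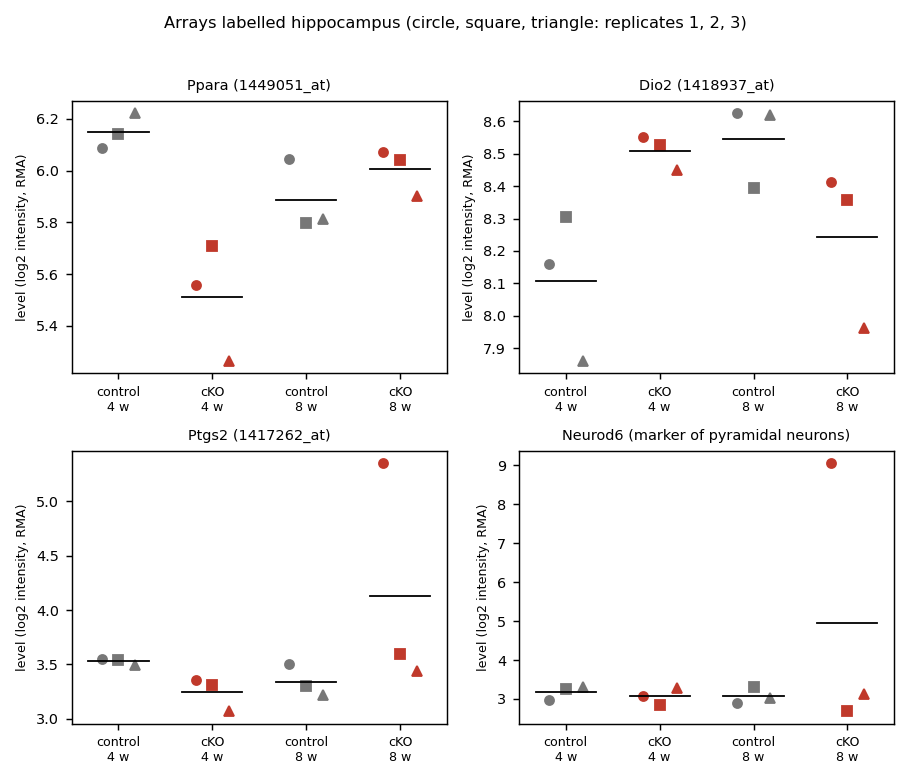
Log2 level (RMA intensity) of Ppara, Dio2, Ptgs2 and the marker gene Neurod6 on the 12 arrays labelled hippocampus. Symbols are replicates 1, 2 and 3, grey is control, red is cKO, and bars are means of 3 arrays. The Ppara values of cKO mice at 4 weeks lie below the other groups, and cKO replicate 1 at 8 weeks stands apart in Ptgs2 (5.35) and Neurod6 (9.05).

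Whether a difference itself differed between tissues was tested on probe sets that passed the filter in both. At 4 weeks the difference of Cidea was larger in the cortex than in the hypothalamus by 0.70 (SE 0.18, adjusted p = 0.0729 from limma) and that of Ppara on 1439675_at lower by 0.51 (SE 0.14, adjusted p = 0.0766). These were the only calls among 17 member probe sets tested, 2 of 17, a share no higher than the 14.9% of all probe sets. Cox7a1 came next (0.44, SE 0.18, adjusted p = 0.155). The other Ppara probe sets lay in the opposite direction and were not called, 1449051_at at 0.12 (SE 0.20) and 1457721_at at 0.21 (SE 0.18). Between cortex and labelled hippocampus no member was called (0.819% of all probe sets), with Cidea at 0.67 (SE 0.18, adjusted p = 0.162), and none between hypothalamus and labelled hippocampus (0.00396%). Without the differing array, labelled hippocampus cKO replicate 1 at 8 weeks, 1 member probe set was called between cortex and labelled hippocampus at 4 weeks (0.773% of all probe sets). At 8 weeks no probe set of any gene was called between tissues. Leaving out 1 array gave between 0 and 9 member probe sets called between cortex and hypothalamus, counted over both times: it was 0 without cortex cKO replicate 2, cortex control replicate 1, hypothalamus cKO replicate 3 or hypothalamus control replicate 1, 6 without cortex cKO replicate 3 and 9 without cortex control replicate 3, all at 4 weeks. The share called among all probe sets at 4 weeks moved with it, to 30.8% without cortex cKO replicate 3 and 40.7% without cortex control replicate 3, and was at most 0.329% in the 4 cases with 0 members. Between cortex and labelled hippocampus it was 0 to 7, with 7 without cortex control replicate 3 (22.6% of all probe sets) and 2 without cortex cKO replicate 3 (8.17%).

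For each member with an unadjusted p under 0.05 at 4 or 8 weeks in a tissue, the 3 genes with the most similar values were found by Pearson's correlation over the 12 arrays, as a description. In the cortex, Cox7a1 was most like Neat1 (0.93), Prrt4 (0.91) and Plgrkt (0.91), and Cidea most like Wdr81 (0.95), Zfp185 (0.94) and Fat4 (0.94). Ppara was most like Ndrg2 (0.92), and Ptgs2 most like Ctdp1 (0.93) and Plk2 (0.91), an activity-regulated kinase. Ppargc1a had the closest match of all, Eif5, a translation factor, at 0.99, followed by Ubxn2a (0.99). Dio2 was most like Abcb10 (0.94), a mitochondrial transporter. In the labelled hippocampus, Ppara was most like Atp6v0a2 (0.93) and Dio2 most like Cables2 (0.88). The arrays of a tissue share a normalization, and the 12 arrays include the groups compared.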

How the data were processed

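Total RNA of cortex, hypothalamus and hippocampus was hybridized to Affymetrix mouse arrays, and the deposited values are log2 intensities that the authors obtained with RMA, run on each tissue apart (version not given in the sources used here). They were used as deposited, with no further scaling. Probe sets were named from the platform's annotation (34945 with 1 gene, 932 with several, the latter counted for no member). Detection calls were not used here. In their place probe sets were ranked by the third-highest of 12 values and kept until, with the most variable one per gene, the study's number was reached (14713 genes in cortex, 15460 in hypothalamus, 14527 in hippocampus).

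limma 3.58.1 in R 4.3.3 was fitted to 4 groups per tissue, with two-sided p-values adjusted after Benjamini and Hochberg over all genes tested and an FDR of 15%, the threshold of the methods. A second fit held all single-gene probe sets without filter. Differences between tissues were fitted on probe sets that passed the filter in both, with the animal as a block by duplicateCorrelation for cortex and hypothalamus (statmod 1.5.0). The script was tested on simulated data. The precision is limited by the 3 arrays per group. Figures were drawn with matplotlib.

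The members and the lists (thermogenesis, prostanoids, PPARα targets, cytochrome c oxidase, immediate-early, leptomeninges, excitatory neuron, fat cell, nuclear RNA and tissue markers) were chosen with earlier results of these data known. Named are all members, up to 4 called genes of a list with the lowest p, paralogs of the members, and the 3 genes most like a member. Neurod6, Slc17a7, Ptges2 and Ptger4 were chosen after their values were seen. Alternatives were other filters, probe sets, scalings, variance models, array weights, thresholds, a plain t-test (which the study's methods name for other measurements), a replicate block and the omission of each array. The deviations of same-numbered arrays correlated in all 3 replicates of the hypothalamus at 8 weeks (0.198, 0.264 and 0.271). Elsewhere they did so in single replicates, at 0.23 (hypothalamus at 4 weeks, replicate 3) and 0.214 (cortex at 8 weeks, replicate 3). The other correlations were at most 0.114.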

Additional observations from a re-analysis of the deposited data

Results flagged for a closer look

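The effect of treatment differed between cortex and hypothalamus at 4 weeks for 2 of 17 member probe sets, by a test of the difference itself in a limma fit of both tissues. For Cidea the cortex difference exceeded that of the hypothalamus by 0.70 on the log2 scale (0.59 in the cortex against -0.11 in the hypothalamus). For Ppara on 1439675_at it was lower by 0.51, at -0.51 for cortex minus hypothalamus. On the other Ppara probe sets cortex minus hypothalamus was 0.12 (1449051_at) and 0.21 (1457721_at), neither called. Of all probe sets tested there 14.9% were called, so the members' share was no higher than that of the rest.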

How the results depend on the processing

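In the cortex at 4 weeks, 4 members were called. Their count was 0 with the 6 arrays compared, by a plain t-test, at an FDR of 5% or with a replicate block. Of all genes, 0, 1, 2 and 3 were called in these settings, in that order, against 769, so the loss was not particular to the members. No paired design is shown by the cortex arrays, whose same-numbered deviations correlated at -0.0177 to 0.214. The member count was also 0 with a filter to 10000 genes (443 of all genes called) or with the methods' number taken as probe sets (313). There 2 members, Ppargc1a and Dio2, were left to test. It was 2 with the highest-mean probe set (1336 of all genes called, against 769) or median centring (102), and 1 with quantile normalization (68). It was 8 with array weights (9707) and 7 without the 3 arrays that stood apart (9117). Leaving out single arrays gave 0 to 7, while the calls among all genes ranged from 0 to 6819. The interaction in the cortex had 0 calls, but 7 with array weights (7454 of all genes) and 7 without those 3 arrays (7189). It had 0 to 4 when 1 array was left out (1922 of all genes where it was 4, without cKO replicate 3 at 4 weeks). In the labelled hippocampus the interaction had 0 to 1 calls, where 219 of all genes were called without cKO replicate 1 at 4 weeks and 0 with all arrays. Between 8 and 4 weeks in the cortex, calls were added up over the cKO and the control comparison. There 0 became 9 with array weights, 4 at an FDR of 25%, 6 without the 3 arrays and 0 to 4 when 1 was left out. The calls among all genes were not counted for these time comparisons, so no share can be set beside them. These counts are therefore not a result about the members. The 2 calls between cortex and hypothalamus became 0 at an FDR of 5% and 0 to 9 when 1 array was left out, and the 0 between cortex and labelled hippocampus 0 to 7. Signs reversed with the highest-mean probe set for Ptgs2 in the cortex at 4 weeks (-0.0804), Ppara (-0.0499) and Dio2 (-0.0632) at 8 weeks, and the interactions of Ppara in cortex (-0.0132) and hypothalamus (-0.000582), and with either stricter filter for the Dio2 interaction (-0.20 in each), since another probe set then stood for the gene. The replicate block changed no other call. The cause of the other changes was not tested. Median centring moved cortex differences by 0.07 at 4 weeks and turned the sign of no called member. With 3 arrays per group, low probe sets such as those of Ptger3 outside the cortex give little precision.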

Other observations

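In the hypothalamus at 8 weeks, 3 prostanoid genes outside the members had the lowest p-values of their list, none of them called by limma. Hpgd, which inactivates prostaglandin E2, had a difference of 0.72 (SE 0.19, adjusted p = 0.405), Tbxas1, the thromboxane synthase, 0.59 (SE 0.17, adjusted p = 0.428), and Hpgds, a synthase of prostaglandin D2, 0.53 (SE 0.18, adjusted p = 0.510). Of the 19 prostanoid genes tested there, 14 had differences above 0, with a median of 0.08. Microglia genes were higher on the same arrays, with 14 of 14 differences above 0 and a median of 1.34, and their part in these values was not tested. The members Ptges and Ptger1 differed by 0.07 and -0.00367 in the same comparison.

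In the labelled hippocampus at 4 weeks, Bmp4 and Bmp7 had differences of -0.59 (SE 0.18) and -0.49 (SE 0.17), adjusted p = 0.773 from limma for each, and lay in the direction opposite to that in the cortex at the same time, where they were 0.88 and 0.69. The leptomeninges genes had medians of -0.59 and 0.72 in the same comparisons, and their part in these values was not tested. The difference between these tissues was not tested for these 2 genes. At 8 weeks Cox8b, another cytochrome c oxidase subunit of brown fat and muscle, had a difference of -0.50 (SE 0.16, adjusted p = 0.767), beside -0.33 for Cox7a1.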
